A study of Mus musculus with 6 samples.

Results

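The Runx, Dlx and Mef2 transcription factors and the zinc finger factor Sp7 were read here as a set of 10 genes, chosen by name out of 23159 genes measured. They were *Runx1*, *Runx2* and *Runx3*, *Sp7* (also called osterix), *Dlx3*, *Dlx5* and *Dlx6*, and *Mef2a*, *Mef2c* and *Mef2d*. These factors act when growth plate chondrocytes leave the cell cycle and enlarge, the step called hypertrophy. Runx proteins bind DNA together with the partner Cbfb, and Runx2 with Runx3 drives chondrocytes into hypertrophy. Sp7 acts below Runx2 and is needed for cartilage mineralization and bone formation, Dlx homeodomain proteins promote chondrocyte maturation, and Mef2c activates the type X collagen gene unless the histone deacetylase Hdac4 holds it silent.

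RNA-seq libraries were made from label-retaining chondrocytes (LRCs) and from non-LRCs. Both came from the growth plates of the distal femur and proximal tibia of mice at postnatal day 49, and all mice were homozygous for 4 alleles, *Col2a1-tTA* in the *Peli2* locus, *TRE-H2B-GFP* in the *Col1a1* locus, *Col2a1-creER* and *R26R-tdTomato*. Both groups had doxycycline from postnatal day 21 to 49, which stops the production of the H2B-GFP histone label so that each division dilutes it, and tamoxifen at days 46 and 47, which turns on tdTomato. LRCs were sorted as H2B-GFP(high)tdTomato+ cells, about 10000 per library, and non-LRCs as H2B-GFP(mid-low)tdTomato+ cells, about 50000 per library. The *Col2a1* promoter drives both tTA, which turns on the label, and creER, which turns on the reporter. The study found weak H2B-GFP in bone cells without the tTA transgene, so the tdTomato gate is what limits the sort to cells with *Col2a1-creER* activity. CD45-negative cells were sorted, which leaves out cells that carry CD45, and cells of littermates were pooled. The number of sorted cells differed with the group, so its part in any difference cannot be told apart from that of the label. Each of 3 experiments contributed a pair of libraries, 1 per population, which made 6 in all.

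Total counts per library were between 18943789 and 129559872, with the fewest in the LRC library of experiment 2. The 14 chondrocyte markers had counts in every library, with a summed level of 96630 to 267300 CPM (counts scaled by TMM-normalized library size), lowest in the same library. Of 7 superficial articular cartilage markers, 4 were higher in LRCs at the thresholds given in the next paragraph (*Prg4*, *Cilp*, *Thbs4* and *Abi3bp*), and the sum of the 7 was 527.2 to 2203 CPM in LRCs against 104.1 to 133.8 in non-LRCs. By in situ hybridization the study also found *Prg4* RNA in the resting zone, far fainter than at the articular surface. It reported that essentially all tdTomato+ cells freed by its digestion came from the growth plate. The sum of 7 osteoblast and osteocyte markers overlapped between the groups (1371 to 3118 against 907.0 to 2109 CPM). Most of it was *Col1a2*, at 2950, 1272 and 1487 CPM in LRCs against 2055, 1397 and 867.8 CPM in non-LRCs, so the sum says little of the other genes. Of these, *Col1a1* was higher in LRCs (log2 fold change 2.38, adjusted p = 0.0151 by edgeR) and *Sost*, an osteocyte gene, was at 0 counts in all libraries. *Dmp1* of the same list was at 3.801, 3.153 and 6.305 CPM in LRCs against 0, 1.832 and 1.549 CPM in non-LRCs. Its libraries did not overlap, and it was not called (log2 fold change 2.94, adjusted p = 0.440 by edgeR). The osteocalcin genes *Bglap* (log2 fold change -1.14, adjusted p = 0.117 by edgeR) and *Bglap2* (-1.48, adjusted p = 0.116) of the same list were lower in LRCs in all 3 experiments, and DESeq2 called both. The 13 skeletal muscle, 10 leukocyte, 7 endothelial and 6 erythroid markers measured summed to no more than 25.23 CPM for any list in any library, with the muscle genes *Myog* and *Pax7* at 0 counts in all 6 and the leukocyte gene *Ptprc* at 0 in 5. In bulk RNA, fewer cells of a type and less RNA per cell cannot be told apart.

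Of the 10 factors, 9 passed the filter on low counts, and 1 of them, *Mef2c*, differed between LRCs and non-LRCs. A gene was called at an adjusted p below 0.05 in edgeR's quasi-likelihood test, with the experiment as a block and Benjamini-Hochberg adjustment over 13728 genes, and a fold change of at least 2. Of all genes tested, 166 were called (1.21%), 120 of them higher and 46 of them lower in LRCs (0.335% lower). The median log2 fold change (LRC over non-LRC) of the 9 factors was -0.17, beside -0.10 over all genes. Of the 9, 3 were fitted higher in LRCs and 6 lower. The direction was the same in all 3 experiments for 7, lower for *Sp7*, *Dlx3*, *Dlx5* and *Mef2c* and higher for *Runx1*, *Runx2* and *Mef2a*, against 46.4% of all genes in either direction. An unadjusted p below 0.05 was reached by 5 of the 9 (18.4% of all genes), and for 2, *Dlx5* and *Mef2c*, no LRC library overlapped a non-LRC library (18.7% of all genes).

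**Figure D1:**
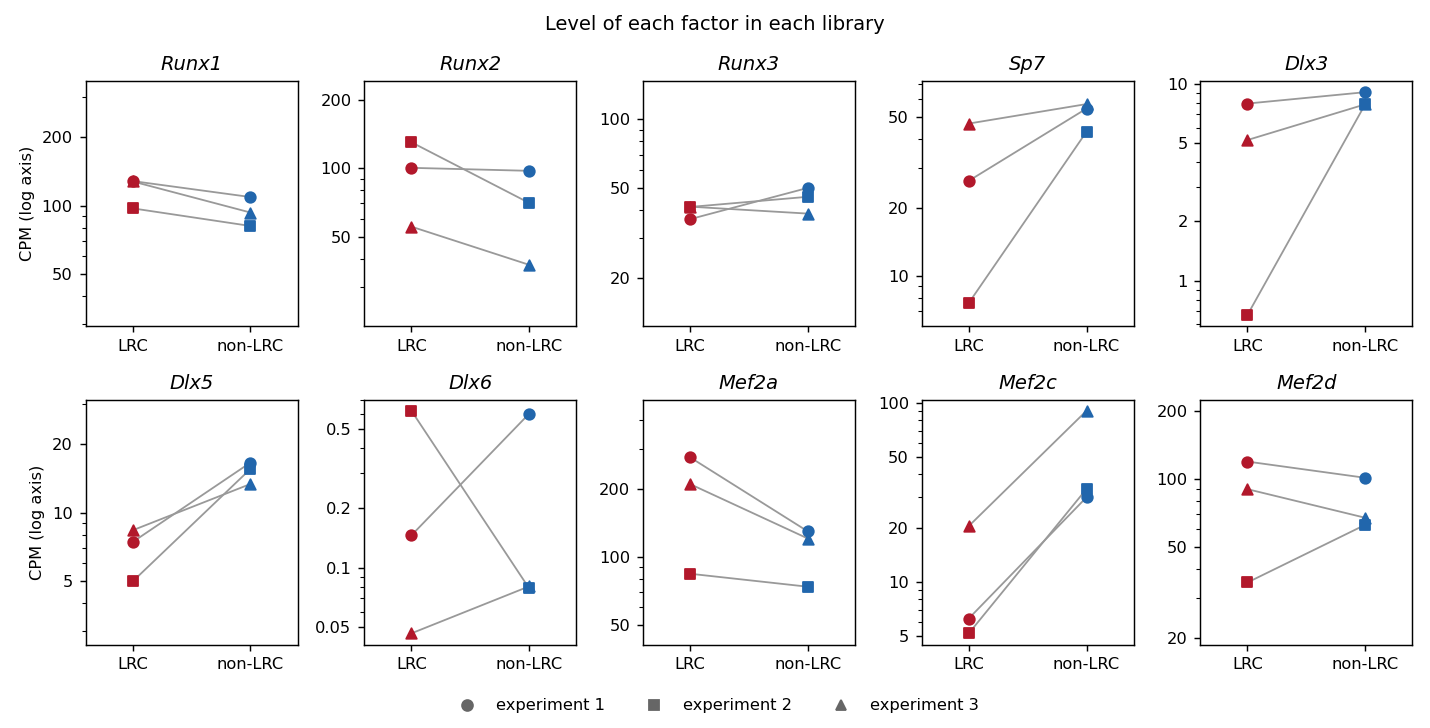
Level of each of the 10 factors in CPM (TMM-normalized, log axis, with a range of its own in each panel) in the LRC (red) and non-LRC (blue) libraries, with a grey line joining the 2 libraries of an experiment and a symbol for each experiment. All 3 lines of *Sp7*, *Dlx3*, *Dlx5* and *Mef2c* run up to the non-LRC side, and all 3 of *Runx1*, *Runx2* and *Mef2a* run down, while *Dlx6* stays below 1 CPM in every library.

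*Runx2* (chromosome 17, 44495987 to 44814797, minus strand, GRCm38), the Runx gene best known for driving chondrocyte and osteoblast maturation, was abundant in both populations. Its level was 100.4, 130.2 and 55.3 CPM in LRCs of experiments 1, 2 and 3, and 97.4, 70.3 and 37.5 CPM in the non-LRCs. Experiment 3 was low in both groups and the groups overlapped, but within each experiment the LRC library was the higher. The log2 fold change was 0.50 (SE 0.20, 95% interval 0.01 to 0.99), with an adjusted p of 0.267 by edgeR, which did not pass. *Runx2* thus did not show the direction of *Sp7*, *Dlx5* and *Mef2c*. The change of *Runx2* minus that of *Sp7* on the log2 scale was 1.10, 3.39 and 0.84 in the 3 experiments, and minus that of *Mef2c* 2.29, 3.57 and 2.70. All 3 values had 1 sign in both cases, where an exact two-sided sign-flip permutation test over 3 pairs gave p = 0.25, the smallest it can give. Exons of *Runx2* share bases with an antisense gene, and the strand setting of the counting was not given in the sources used here.

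*Runx1*, best known from blood cell formation and also active in early chondrocytes, lies on chromosome 16 (92601466 to 92826149, minus strand). It was measured at 128.3, 97.3 and 127.8 CPM in LRCs against 109.1, 81.4 and 93.2 CPM in non-LRCs. The LRC library was the higher in each experiment by a log2 difference of 0.23 to 0.46, and the groups overlapped. The log2 fold change was 0.32 (SE 0.14, adjusted p = 0.305 by edgeR), with a 95% interval of 0.981 to 1.58 for the fold, so that a change of 2-fold lay outside it. *Runx3* (chromosome 4, 135120652 to 135177990, plus strand), which shares the role of *Runx2* in hypertrophy, had the most even level of the Runx genes. Its values were 36.4, 41.1 and 41.3 CPM in LRCs against 49.9, 45.6 and 38.5 CPM in non-LRCs. It was lower in LRCs in experiments 1 and 2 and higher in experiment 3, with a log2 fold change of -0.17 (SE 0.19, adjusted p = 0.686 by edgeR) and a 95% interval of 0.646 to 1.23 for the fold.

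The level of a family can be split into the shares of its genes. Scaled by the length of annotated exons, *Runx3* made up 24.8%, 26.5% and 32.8% of the Runx level in LRCs and 33.2%, 38.3% and 39.1% in non-LRCs. The share was lower in LRCs in every experiment, with a mean difference of -8.79 percentage points (SD 2.79, n = 3, exact sign-flip permutation p = 0.25, the smallest possible). The difference in the share of *Runx2*, a mean of 6.51 points higher in LRCs, also had 1 sign in all experiments (p = 0.25, exact), and that of *Runx1* did not (p = 0.5, exact). *Cbfb*, the partner that all Runx proteins need to bind DNA well, was at 203.6 ± 24.4 CPM (SD, n = 3) in LRCs and 237.2 ± 11.8 CPM in non-LRCs. The libraries of *Cbfb* did not overlap, and its log2 fold change of -0.23 (SE 0.15) did not pass the test (adjusted p = 0.485 by edgeR).

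In each experiment *Sp7* (chromosome 15, 102356606 to 102367182, minus strand) had the lower level in LRCs, by very unequal amounts. LRC libraries gave 26.2, 7.60 and 46.9 CPM, and non-LRC libraries 54.6, 43.2 and 57.1 CPM. The LRC library of experiment 2 was the lowest by far, at 159 counts, and the LRC library of experiment 3 lay within the range of the non-LRCs. The log2 fold change was -1.25 (SE 0.43, 95% interval -2.30 to -0.21), and it was not called (adjusted p = 0.203 by edgeR). DESeq2 with the same block called it (log2 fold change -1.25, adjusted p = 0.0191), as 1 of 3 factors, with *Dlx5* and *Mef2c*, while it called 5.85% of all genes. The study, whose own analysis was a paired DESeq2 model, listed the same 3 factors among genes higher in non-LRCs. Without experiment 3 edgeR called *Sp7* also (-1.75, adjusted p = 0.0448), and without experiment 2, whose LRC library had the fewest counts, the log2 fold change was -0.67 (adjusted p = 0.124). Of the other Sp family members, *Sp1*, *Sp2*, *Sp3*, *Sp4* and *Sp6* could be tested and 0 were called by edgeR (0 also at an unadjusted p below 0.05 and 0 by DESeq2). The lowest p among them were those of *Sp2* (0.29, adjusted p = 0.469), *Sp6* (-3.81 from 0, 0 and 13 counts in LRCs and 68, 6 and 16 in non-LRCs, adjusted p = 0.516) and *Sp3* (-0.16, adjusted p = 0.731), while *Sp5*, *Sp8* and *Sp9* had at most 2 counts in a library.

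*Dlx5* (chromosome 6, 6877805 to 6882085, minus strand), a homeodomain factor that promotes chondrocyte and osteoblast maturation, was the Dlx gene with separate groups. It was at 7.41, 4.97 and 8.35 CPM in LRCs against 16.6, 15.6 and 13.4 CPM in non-LRCs. Each LRC library was below every non-LRC library. The fitted level was 2.23-fold lower in LRCs (log2 fold change -1.16, SE 0.32, 95% interval -1.95 to -0.37), and it did not pass the adjustment (adjusted p = 0.141 by edgeR). It was called by DESeq2 (adjusted p = 0.0178) and by limma-voom (log2 fold change -1.09, adjusted p = 0.0402). For *Dlx5* the call therefore depended on the test, while the fitted log2 fold change was between -1.38 and -0.92 over the 11 settings run.

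*Dlx3* (chromosome 11, 95120119 to 95125296, plus strand), known from hair, tooth and bone formation, was at 7.95, 0.669 and 5.19 CPM in LRCs against 9.09, 7.91 and 7.89 CPM in non-LRCs. The non-LRC libraries were nearly equal, and the low LRC value of experiment 2 came from 14 counts. The log2 fold change of -1.30 (SE 0.75, 95% interval -3.14 to 0.53, adjusted p = 0.417 by edgeR) was -0.39 without experiment 2 (adjusted p = 0.413). *Dlx6* (chromosome 6, 6863334 to 6868568, plus strand), the neighbour and partner of *Dlx5*, was close to absent. It had 17, 13 and 2 counts in LRCs and 62, 3 and 4 in non-LRCs, below the filter, so that a difference was not detectable at this depth. In 2 libraries it had 3 counts or fewer, and 3 counts stand for 0.0257 to 0.143 CPM over the libraries. *Dlx6as1*, the antisense transcript of this locus, was at 75, 1 and 76 counts in LRCs and 101, 19 and 238 in non-LRCs (log2 fold change -1.58, SE 0.93, adjusted p = 0.426 by edgeR), and *Dlx6as2* was at 0 counts in every LRC library and at 24, 0 and 1 in the non-LRCs. *Dlx6as2* shares exon bases with *Dlx6*, so reads there cannot be told apart without strand. *Dlx1*, *Dlx2* and *Dlx4* also fell below the filter, with at most 52 counts in a library. By length-scaled level, *Dlx5* was the larger part of the Dlx genes in every library (51.3% to 80.9%), and the mean difference in its share between the groups was -1.45 points (exact p = 0.75).

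*Mef2c*, a MADS-box factor that chondrocytes need for hypertrophy, was the called gene. Its gene spans 83504034 to 83667080 on the plus strand of chromosome 13 (GRCm38). It was at 6.25, 5.16 and 20.5 CPM in LRCs, from 730, 108 and 883 counts, and at 29.8, 33.2 and 90.8 CPM in non-LRCs, from 3079, 1268 and 4512 counts. Every LRC library was below every non-LRC library, and experiment 3 was the highest in both groups. The difference within an experiment was nonetheless even, with log2 values of -2.25, -2.68 and -2.14. The range of these differences, 0.54, was smaller than the range of the levels within LRCs (1.99) or non-LRCs (1.61) on the same scale. *Mef2c* was 5.11-fold lower in LRCs (log2 fold change -2.35, SE 0.21, 95% interval -2.88 to -1.83, adjusted p = 0.0177 by edgeR), the 24th smallest p of all genes. It was called under 10 of the 11 settings. The exception was the fit without the experiment as a block, in which the log2 fold change was -2.26 and the adjusted p 0.321, and in which 1 gene was called in all. *Mef2c* is also known from muscle, endothelial cells and B cells, the last of which carry CD45 and were gated out. The summed muscle markers were at 5.22 to 11.04 CPM in LRCs against 9.31 to 14.5 CPM in non-LRCs, the endothelial markers at 0.573 to 1.16 against 0.871 to 1.77 CPM, and the B cell gene *Cd79a* had 33, 0 and 8 counts against 18, 0 and 7. The erythroid markers, at 0.805 to 3.40 against 4.51 to 9.29 CPM, did not overlap between the groups, and the superficial articular markers were higher in LRCs, as given above. The part of these in the result was not tested.

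*Mef2a* and *Mef2d*, the relatives of *Mef2c* that are found in most tissues, did not follow it. *Mef2a* (chromosome 7, 67231163 to 67372858, minus strand) was at 274.7, 84.3 and 209.4 CPM in LRCs against 129.5, 73.9 and 120.5 CPM in non-LRCs. The LRC library was the higher in each experiment, though experiment 2 was low in both groups and the groups overlapped. The log2 fold change was 0.69 (SE 0.20, 95% interval 0.20 to 1.19), which missed both thresholds in edgeR (adjusted p = 0.155). DESeq2 gave 0.70 with an adjusted p of 0.0176, limma-voom 0.78 with 0.0187, and edgeR without experiment 2 0.94 with 0.0288, each under the 2-fold limit. *Mef2d* (chromosome 3, 88142372 to 88172086, plus strand) was at 119.2, 35.0 and 90.1 CPM in LRCs against 101.1, 62.8 and 67.4 CPM in non-LRCs. It was lower in LRCs in experiment 2 alone, with a log2 fold change of -0.05 (SE 0.27, adjusted p = 0.935 by edgeR) and a 95% interval of 0.610 to 1.52 for the fold. Some exon bases of both genes are shared with genes on the other strand, *Lysmd4* for *Mef2a* and *1700113A16Rik* for *Mef2d*, both below 17 CPM in every library and not called. *Mef2b*, the remaining Mef2 gene, had at most 9 counts in a library.

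**Figure D2:**
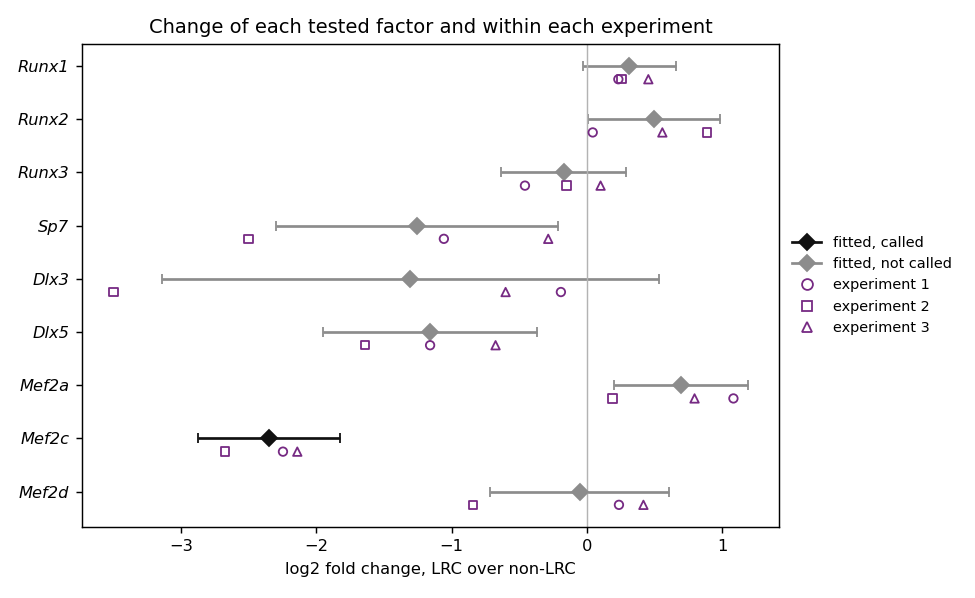
Fitted log2 fold change (LRC over non-LRC) of the 9 tested factors with its 95% interval (diamonds, black where called), and the difference within each experiment (open symbols). *Mef2c* is the called gene, at -2.35, with its 3 experiments between -2.68 and -2.14, while for *Sp7* and *Dlx3* experiment 2 lies far below the others.

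The make-up of the Mef2 family is given by shares. Per length of exon, *Mef2c* took 1.02%, 2.76% and 4.27% of the Mef2 level in LRCs and 6.87%, 11.97% and 22.9% in non-LRCs. *Mef2a* took 48.0%, 48.2% and 46.6% in LRCs and 32.0%, 28.5% and 32.5% in non-LRCs, with no overlap. The share of *Mef2a* was a mean of 16.6 percentage points higher in LRCs (SD 2.85, n = 3), and for *Mef2c* the mean difference was -11.2 points (2.68% ± 1.63 in LRCs, 13.9% ± 8.18 in non-LRCs), each with 1 sign in the 3 experiments (exact sign-flip permutation p = 0.25 for both, the smallest possible). For *Mef2d* the mean difference was -5.35 points (p = 0.5, exact). The change of *Mef2a* minus that of *Mef2c* was 3.33, 2.87 and 2.94 on the log2 scale in the 3 experiments (mean 3.05, SD 0.25, exact p = 0.25). These shares rest on exon lengths of all annotated transcripts together, and which isoforms were present was not analysed here.

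**Figure D3:**
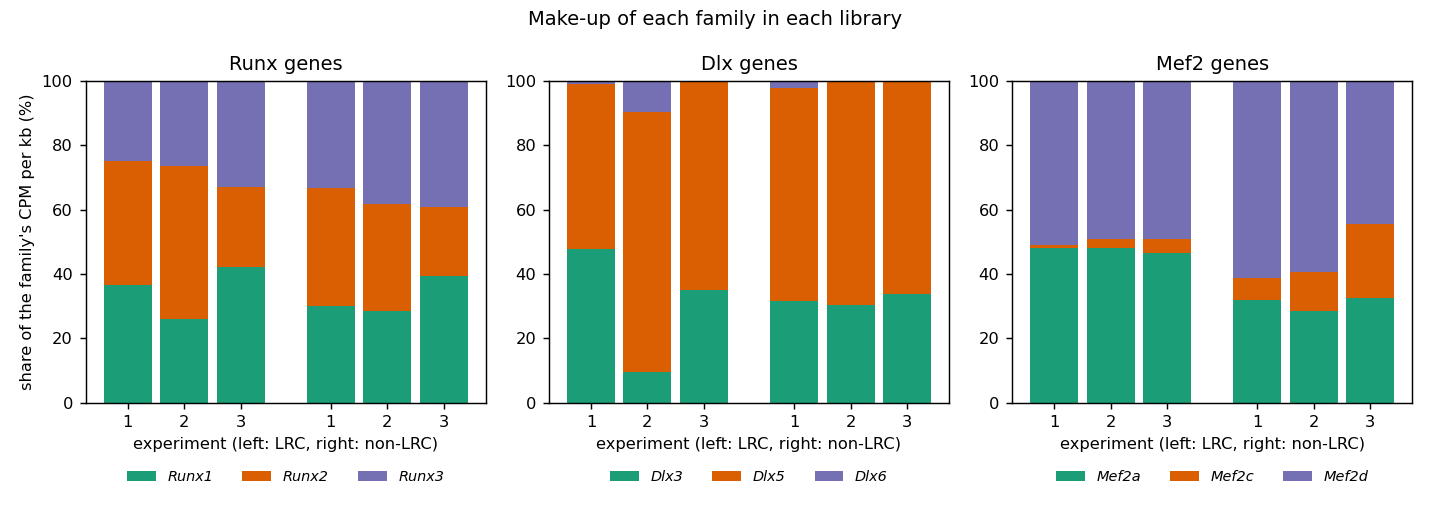
Share of each gene in the summed CPM per kb of exon of its family, in percent, for the 3 LRC libraries (left bars) and the 3 non-LRC libraries (right bars) of each family. The *Mef2c* part is 1.02% to 4.27% in LRCs and 6.87% to 22.9% in non-LRCs, and the *Dlx6* part is at most 2.28% outside the LRC library of experiment 2, where it is 9.64%.

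Levels of different genes were compared per kb of exon. In non-LRCs the mean was highest for *Sp7* (15.2 ± 2.18 CPM per kb, SD, n = 3), followed by *Mef2d* (12.9 ± 3.49), *Runx3* (8.93 ± 1.16), *Runx1* (7.86 ± 1.16), *Runx2* (7.74 ± 3.39), *Mef2a* (7.36 ± 2.03), *Dlx5* (6.71 ± 0.732), *Mef2c* (3.26 ± 2.18), *Dlx3* (3.18 ± 0.264) and *Dlx6* (0.107 ± 0.127). Neighbours in this order lay closer together than the larger of their SDs, except *Mef2d* and *Runx3*, *Dlx5* and *Mef2c*, and *Dlx3* and *Dlx6*. In LRCs the order was *Mef2d* (13.6 ± 7.15 CPM per kb), *Mef2a* (12.9 ± 6.59), *Runx2* (10.8 ± 4.27), *Runx1* (9.80 ± 1.48), *Sp7* (7.92 ± 5.78), *Runx3* (7.91 ± 0.561), *Dlx5* (3.05 ± 0.772), *Dlx3* (1.77 ± 1.41), *Mef2c* (0.678 ± 0.546) and *Dlx6* (0.114 ± 0.129). There the first 6 genes were not separated from their neighbours by more than the larger SD, and neither were *Dlx5*, *Dlx3* and *Mef2c*.

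The proteins that restrain these factors gave no called gene. Among 25 repressors and ubiquitin ligases, all tested, 15 had a fitted level above and 10 below that of non-LRCs, and the list's median was 0.29 on the log2 scale. The count of called genes was 0 in edgeR, with 4 at an unadjusted p below 0.05, all higher in LRCs, and 2 in DESeq2 (*Smurf1* and *Hey1*). Over all genes, 18.4% reached that unadjusted p in either direction, and DESeq2 called 5.85%. *Hdac4*, the histone deacetylase that binds Mef2c and Runx2 and keeps hypertrophy in check, was at 72.6, 69.3 and 69.8 CPM in LRCs against 44.1, 39.4 and 41.8 CPM in non-LRCs. The replicates of *Hdac4* were close together and the groups lay apart, with a log2 fold change of 0.76 (SE 0.15, 95% interval 0.39 to 1.13) and an adjusted p of 0.0808 by edgeR, so it was not called. *Smurf1*, a ubiquitin ligase that marks Runx2 for degradation, was at 60.8, 44.6 and 35.5 CPM in LRCs against 37.3, 11.02 and 18.5 CPM in the non-LRC libraries (log2 fold change 1.21, SE 0.30, adjusted p = 0.115). *Hey1*, a Notch target whose protein can repress Runx2, was at 11.95, 25.8 and 11.5 CPM in LRCs against 6.58, 4.95 and 6.66 CPM (log2 fold change 1.33, adjusted p = 0.178 by edgeR). *Sox9*, the chondrocyte factor that holds back Runx2, was at 2021 ± 501 CPM in LRCs against 1433 ± 19.5 CPM in the other group (SD, n = 3), with a log2 fold change of 0.46 (adjusted p = 0.273).

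All 13 coactivators and partners were tested and 0 were called by edgeR (1 at an unadjusted p below 0.05, beside 18.4% of all genes, and 0 in DESeq2), with a median log2 fold change of 0.03. The lowest p were those of *Ep300*, a histone acetyltransferase (log2 fold change 0.72, adjusted p = 0.188), *Wwtr1*, the Hippo pathway coactivator TAZ (0.35, adjusted p = 0.325), and *Foxa2*, a forkhead factor of hypertrophic chondrocytes (-0.90, adjusted p = 0.365).

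The genes listed as targets of these factors had changes in both directions, and whether the factors act on each of them here was not tested. Of 23 listed targets 21 were tested, 2 were called lower and 2 higher in LRCs, and 17 were not called, where 1.21% of all genes were called. The median of the 21 was -0.44 on the log2 scale, beside -0.51 for the 14 chondrocyte markers and -0.10 over all genes. *Panx3*, a channel protein of prehypertrophic chondrocytes that Runx2 activates, was at 8.86, 6.79 and 60.1 CPM in LRCs against 177.5, 176.4 and 493.6 CPM in non-LRCs. No libraries overlapped, and *Panx3* was 16.1-fold lower in LRCs (log2 fold change -4.01, SE 0.36, adjusted p = 0.0177). *Pth1r*, the receptor for PTHrP in prehypertrophic cells, was at 153.1, 79.9 and 207.2 CPM in LRCs against 383.6, 304.7 and 629.5 CPM in the non-LRC libraries (log2 fold change -1.62, SE 0.17, adjusted p = 0.0228). Both had their highest non-LRC value in experiment 3, as did *Mef2c*.

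The 2 genes called higher in LRCs act on phosphate and pyrophosphate. *Ank*, which exports pyrophosphate, an inhibitor of mineral growth, was at 900.7, 1240 and 581.3 CPM in LRCs against 321.1, 525.0 and 159.2 CPM in the non-LRC libraries (log2 fold change 1.53, SE 0.17, adjusted p = 0.0275). *Slc20a1*, a phosphate importer, was at 1222, 1252 and 909.3 CPM in LRCs against 541.1, 568.6 and 441.4 CPM in the non-LRC libraries (log2 fold change 1.12, SE 0.14, adjusted p = 0.0331). The groups did not overlap for either gene. Without experiment 1 neither was called, and 2 targets, *Panx3* and *Pth1r*, were. The fit without the block called 0 of the 21. DESeq2 called 8, beside 5.85% of all genes. Of these, 2 were higher in LRCs and 6 lower, the latter including *Col10a1* and *Ihh*.

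Late markers varied more between experiments. *Col10a1*, the type X collagen of hypertrophic cells, had 225, 3 and 3267 counts in LRCs and 1259, 600 and 13113 in non-LRCs. The LRC library had the lower level within each experiment, and experiment 3 was the highest in both groups, so that the groups overlapped (log2 fold change -2.95, SE 0.69, adjusted p = 0.101 by edgeR). *Ihh*, the hedgehog ligand of prehypertrophic cells, had 0, 0 and 47 counts in LRCs and 96, 43 and 420 in non-LRCs (adjusted p = 0.150). *Mmp13*, the collagenase of the last hypertrophic cells, was at 164.8, 84.0 and 90.3 CPM in LRCs against 78.0, 183.6 and 265.6 CPM in non-LRCs. It was higher in LRCs in experiment 1 and lower in the others (log2 fold change -0.57, SE 0.52, adjusted p = 0.612). *Spp1*, osteopontin, had a log2 fold change of -0.003 (adjusted p = 0.992), with a 95% interval of 0.793 to 1.26 for the fold.

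**Figure D4:**
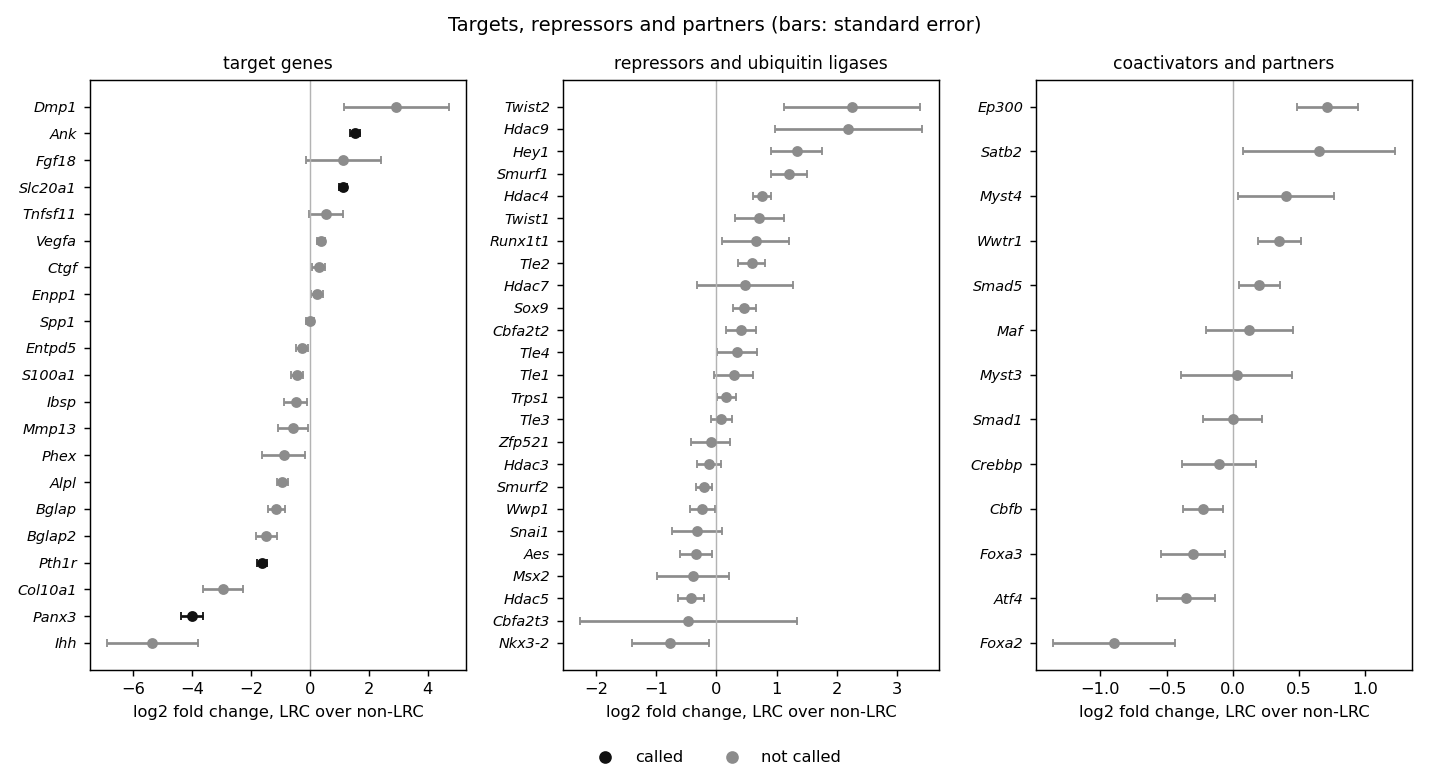
Fitted log2 fold change (LRC over non-LRC) of the tested genes of 3 lists, with standard errors as bars and called genes in black. Among the targets *Panx3* and *Pth1r* lie on the lower side and *Ank* and *Slc20a1* on the higher side, and all 25 repressors and 13 partners are grey.

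Promoters were searched for short motifs of the 3 families, in the 250 bases before each annotated start, with sequences from RefSeq on GRCm38.p6 and both strands read. Of the 10 factors 6 had an entry, with 10 promoters, and of the 23 targets 20 had one, with 27 promoters. The Runx core TGTGGT was in 2 of the 10 factor promoters and in 6 of the 27 target promoters (22.2%), beside 14% of 32851 promoters of all genes. The homeodomain core TAATTA, the kind of site that Dlx proteins bind, was in 1 and 2 of them, beside 4.84%. The 1 factor promoter with it is a *Mef2c* promoter inside the gene (chr13:83523406-83523655), with the core 102 bases before the start. The Mef2 motif, searched as CTA and TAG with any 4 bases between them, was in 0 of both sets, beside 3.2%, which says only that these letters are not in these windows. A match is a description of the letters and not a bound site. The promoters printed are that of the called factor *Mef2c*, at the first start of the gene, a window that holds none of the 3 motifs, and those of *Mmp13* and *Col10a1*, textbook targets of Runx2 and Mef2c, of which the first holds the Runx core on the other strand and the second the homeodomain core (capitals). Windows that overlapped an annotated exon were not printed.
Mef2c, chr13:83503784-83504033, plus strand, no match: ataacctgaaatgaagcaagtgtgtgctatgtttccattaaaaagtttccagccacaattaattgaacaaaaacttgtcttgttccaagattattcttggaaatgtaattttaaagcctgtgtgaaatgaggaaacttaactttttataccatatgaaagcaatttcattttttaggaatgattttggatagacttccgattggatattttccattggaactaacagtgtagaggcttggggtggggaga
Mmp13, chr9:7272264-7272513, plus strand, Runx core 118 bases before the start: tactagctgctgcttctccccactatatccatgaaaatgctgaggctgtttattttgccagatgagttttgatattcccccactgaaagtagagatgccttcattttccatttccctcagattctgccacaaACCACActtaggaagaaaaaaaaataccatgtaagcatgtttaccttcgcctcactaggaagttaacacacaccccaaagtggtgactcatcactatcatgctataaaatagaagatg
Col10a1, chr10:34389731-34389980, plus strand, homeodomain core 106 bases before the start: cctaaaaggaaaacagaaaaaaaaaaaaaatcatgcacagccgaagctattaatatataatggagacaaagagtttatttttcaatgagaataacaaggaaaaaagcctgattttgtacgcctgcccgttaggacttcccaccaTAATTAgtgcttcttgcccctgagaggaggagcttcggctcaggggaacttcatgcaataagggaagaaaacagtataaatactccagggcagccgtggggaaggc

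The genes most like the factors were found by Pearson r of log2 CPM over the 6 libraries, among 9369 genes with a mean of at least 5 CPM. These values are descriptions, since the 6 points share experiments, and a difference between groups or experiments alone gives high values. For *Mef2c* the closest included *Slc38a4*, an amino acid transporter (r = 0.995), and *Cdkal1* (r = 0.994), of which *Slc38a4* was itself called (log2 fold change -1.93, adjusted p = 0.0311 by edgeR). For *Sp7* they were *Sgol1* (r = 0.998), *Cndp2* (r = 0.996) and *Atl1* (r = 0.993). For *Dlx5* they were *Deptor*, an mTOR inhibitor (r = 0.998), *Klf5* (r = 0.997) and *Plk2* (r = 0.994), and for *Runx2* *Abcb1b* (r = 0.989), *Arglu1* (r = 0.988) and *Mll2* (r = 0.986). Among the targets, *Mef2c* ran with *Panx3* (r = 0.988), *Ihh* (r = 0.983), *Pth1r* (r = 0.957) and *Col10a1* (r = 0.896) over the 6 libraries. It was less like *Ibsp* (r = 0.66), *Mmp13* (r = 0.497) and *Spp1* (r = 0.108). *Runx2* ran opposite to *Col10a1* (r = -0.94), *Ibsp* (r = -0.94), *Ihh* (r = -0.869), *Panx3* (r = -0.759) and *Pth1r* (r = -0.759). It ran less so to *Mmp13* (r = -0.621) and *Spp1* (r = -0.217). In both groups *Runx2* was lowest, and *Col10a1* and *Ibsp* highest, in experiment 3.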

How the data were processed

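Growth plate chondrocytes were sorted and their RNA sequenced by the authors, who aligned reads with TopHat2 (2.0.13) and Bowtie2 (2.2.1) to mm10 and counted non-ambiguously mapped reads with HTSeq. The annotation and strand setting are not given in the sources used here. The study made its cDNA with a SMART-Seq kit for low RNA input and its libraries with Nextera XT. Reads of overlapping genes on opposite strands were not separated here. The authors deposited raw counts per gene, which were the input of all tests. A second deposited table holds a normalized signal, each library's counts over its DESeq2 size factor, used to check this relation, and the last deposited table holds log2 (rlog) values, not used here.

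Tests were run with edgeR 4.0.16 in R 4.3.3 (TMM, filterByExpr with minimum count 10 and total 15, quasi-likelihood test). Experiments were a block, as in the paired DESeq2 model that the study's methods state. Deviations of same-numbered libraries from their group means correlated with r of 0.197, 0.288 and 0.336, beside -0.274 to 0.128 for libraries of different experiments. Deviations from a group mean cancel out, so these values are not independent of each other. The 95% intervals use the test's degrees of freedom, and log2 CPM a prior count of 2. Fits were also run on simulated counts, whose outcome is not reported here and on which no result above rests. Alternatives were no block, DESeq2 1.42.0, its size factors, other filters, limma-voom (limma 3.58.1), thinning and leaving out experiments. Pooling of littermates was stated but not the animals per library, so that the spread between animals is not measured. With the block, p-values measure how the difference between the groups within an experiment varied over the experiments. Exon lengths and coordinates came from GENCODE vM21, with 20778 of 23159 symbols matched directly and 1913 by older names.

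Members and lists were chosen with earlier results of these data known. Named genes were all members, the antisense genes of *Dlx6*, all called genes of each list of relatives, partners, repressors and targets or else the 3 of lowest p, *Cbfb*, *Hdac4*, *Sox9*, *Col10a1*, *Ihh* and *Mmp13*, and the 3 most alike, of which 1 is not reported here. Cell type marker lists were given by their sums and called genes, without the 3 of lowest p that the rule also asks for. For the chondrocyte list, directions and unadjusted p were added after its values were seen, and *Col2a1* and *Col1a2* were named in the same way. *Spp1*, *Ibsp*, *Bglap*, *Bglap2*, *Dmp1*, *Sost*, *Myog*, *Pax7*, *Ptprc*, *Cd79a*, overlapping genes and *Sp1*, *Sp4*, *Sp5*, *Sp8*, *Sp9*, *Dlx1*, *Dlx2*, *Dlx4* and *Mef2b* were named after their values were seen, as were the correlations with targets.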

Additional observations from a re-analysis of the deposited data

How the results depend on the processing

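The call of *Mef2c* was lost without the experiment as a block (log2 fold change -2.26, adjusted p = 0.321), where 1 gene, 0 of the factors and 0 targets were called. DESeq2 with the block called 800 genes, 3 factors, 2 repressors and 8 targets, and limma-voom 621 genes, 2 factors, 2 repressors and 7 targets. At least 10 counts in every library gave 434 genes and 1 repressor (*Smurf1*). Leaving out an experiment gave 35 to 555 genes, 1 to 2 factors (*Sp7* added without experiment 3) and 2 to 6 targets. Of 90 fold changes of factors under alternatives, 81 kept direction and side of the threshold. *Mef2d* turned to 0.080 without the block, 0.086 in limma-voom, 0.0022 with libraries thinned to the smallest and 0.33 without experiment 2, against -0.28 without experiment 3. With counts not scaled by length, the mean difference in share was -5.97 points for *Runx3* and 21.8 for *Mef2a*. In each of these cases the cause was not tested. At these depths *Dlx6*, with 2 to 62 counts per library, fell below the filter of the main fit, and it was not called under the alternatives that kept it.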
